A study of Homo sapiens with 2 samples.

Results

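The bands 19p13.2 and 19p13.11 are 2 gene-rich stretches of the short arm of human chromosome 19. The summits called inside them in either genotype, by ChIP-seq with an antibody against ZMYND8, are described here. In hg19 coordinates 19p13.2 runs from 6900001 to 13900000 (7 Mb) and 19p13.11 from 16300001 to 20000000 (3.7 Mb). All summits in these limits were taken, with no score minimum. The bands were selected on their parental summit density, seen in earlier results of these data, so density is a description and carries no test. The members were 19 of the 385 summits of the knockout list and 1075 of the 45924 summits of the parental list.

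The summits came from mammospheres of MDA-MB-231, an established line from a triple-negative breast cancer, grown as floating spheres in MammoCult medium. One library was made from ZMYND8 knockout spheres and the other from parental spheres, labelled wildtype, both with the same Bethyl Laboratories antibody against ZMYND8. Whether the knockout line is 1 clone or a pool is not stated in the labels. A summit called in knockout spheres cannot be assumed to mark ZMYND8, and neither can a parental summit beside it. What such summits mark was not tested. Each genotype had 1 library, so no difference between them has a replicate check and no test across libraries was possible. All intervals are 95% intervals that cover counting error only.

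ZMYND8 is a nuclear protein that reads histone marks through a PHD finger, a bromodomain and a PWWP domain, and it is known to bring corepressor complexes to promoters and enhancers. A summit is the base at which a peak caller placed the top of an enriched region, and its score, the −log10 of a p or q value, states how unlikely the pile of reads was against the background the caller used. Band 19p13.2 is known for the genes of the chromatin remodeller SMARCA4, the DNA methyltransferase DNMT1 and the oxidative stress sensor KEAP1. It also holds large clusters of genes for KRAB zinc finger proteins, many of which silence transposable elements. Band 19p13.11 is known for the AP-1 member JUND, the growth factor gene GDF15 and the NuRD subunit GATAD2A.

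The sequence upstream of 4 genes of 19p13.2 is shown because these genes have an hg19 start site that could be set against the summits, and because they cover a promoter summit in both lists (KEAP1), a high parental one alone (CTXN1), a low parental one alone (ZNF562) and none (ZNF443). Each run is the 250 bases before the start site on the gene's own strand, 5′ to 3′, from RefSeq on GRCh38.p14. The start was accepted where its distance to the far end of the RefSeq gene equalled the length of the hg19 model to the base (16647 bp for KEAP1, 1645 bp for CTXN1, 33294 bp for ZNF562 and 11316 bp for ZNF443). The coordinates are chr19:10502772-10503021 for KEAP1, chr19:7926136-7926385 for CTXN1, chr19:9675101-9675350 for ZNF562 and chr19:12441022-12441271 for ZNF443, all on the minus strand of GRCh38.p14. Capitals mark the GC box, a binding motif of SP family factors.
KEAP1: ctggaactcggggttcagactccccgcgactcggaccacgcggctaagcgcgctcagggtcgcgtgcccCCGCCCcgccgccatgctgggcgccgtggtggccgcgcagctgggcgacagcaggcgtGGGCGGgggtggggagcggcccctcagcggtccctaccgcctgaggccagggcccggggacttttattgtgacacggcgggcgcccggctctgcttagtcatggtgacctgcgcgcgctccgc
CTXN1: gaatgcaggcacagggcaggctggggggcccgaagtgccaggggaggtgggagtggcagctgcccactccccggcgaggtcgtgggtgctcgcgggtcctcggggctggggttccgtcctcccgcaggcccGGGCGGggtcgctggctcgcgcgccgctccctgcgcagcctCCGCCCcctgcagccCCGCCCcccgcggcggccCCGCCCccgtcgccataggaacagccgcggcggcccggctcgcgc
ZNF562: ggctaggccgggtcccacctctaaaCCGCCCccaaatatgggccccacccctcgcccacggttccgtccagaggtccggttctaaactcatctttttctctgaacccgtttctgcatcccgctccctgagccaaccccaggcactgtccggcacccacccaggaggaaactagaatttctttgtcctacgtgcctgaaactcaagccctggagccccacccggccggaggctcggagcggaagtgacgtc
ZNF443: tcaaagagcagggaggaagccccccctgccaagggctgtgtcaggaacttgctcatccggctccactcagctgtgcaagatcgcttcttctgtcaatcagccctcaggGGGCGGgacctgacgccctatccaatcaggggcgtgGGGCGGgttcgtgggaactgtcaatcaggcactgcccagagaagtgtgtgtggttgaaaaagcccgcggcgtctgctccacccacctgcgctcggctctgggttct

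All 4 runs held a GC box (GGGCGG or its complement on the other strand), with 4 copies upstream of CTXN1, 2 upstream of KEAP1, 2 upstream of ZNF443 and 1 upstream of ZNF562. Of 35116 RefSeq windows of the same length, 42.6% held one, and the ZNF443 run, with no summit at its gene, held as many copies as the KEAP1 run. The ratio of observed to expected CpG was 0.926 for KEAP1, 0.775 for CTXN1, 0.673 for ZNF562 and 0.506 for ZNF443, against a median of 0.558 over all windows. A cAMP response element (TGACGTCA, in 1.65% of windows), an E-box (CACGTG, 6.34%) and an AP-1 site (TGACTCA, 4.20%) were searched on both strands and matched none of the 4 runs. The ZNF562 run ends in TGACGTC, which is the first of these without its last base. The next base lies outside the run, so a match across the start site could not be read. A CCAAT box (32.0% of windows, both strands) matched only the ZNF443 run. No searched motif contains another.

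Both lists were dense in these bands. The knockout list held 10 summits in 19p13.2, or 1.43 per Mb (0.685 to 2.63), and the parental list held 595, or 85 per Mb (78.3 to 92.1). In 19p13.11 the knockout list held 9 summits, or 2.43 per Mb (1.11 to 4.62), and the parental list held 480, or 129.7 per Mb (118.4 to 141.9). Outside the bands, the rest of chromosome 19 held 0.330 knockout summits per Mb (0.189 to 0.537) and 39.6 parental summits per Mb (37.9 to 41.4). The rest of the genome held 0.119 knockout and 14.5 parental summits per Mb. Among the 822 cytogenetic bands of at least 1 Mb, 19p13.11 ranked 2 and 19p13.2 ranked 12 by parental density.

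**Figure D1:**
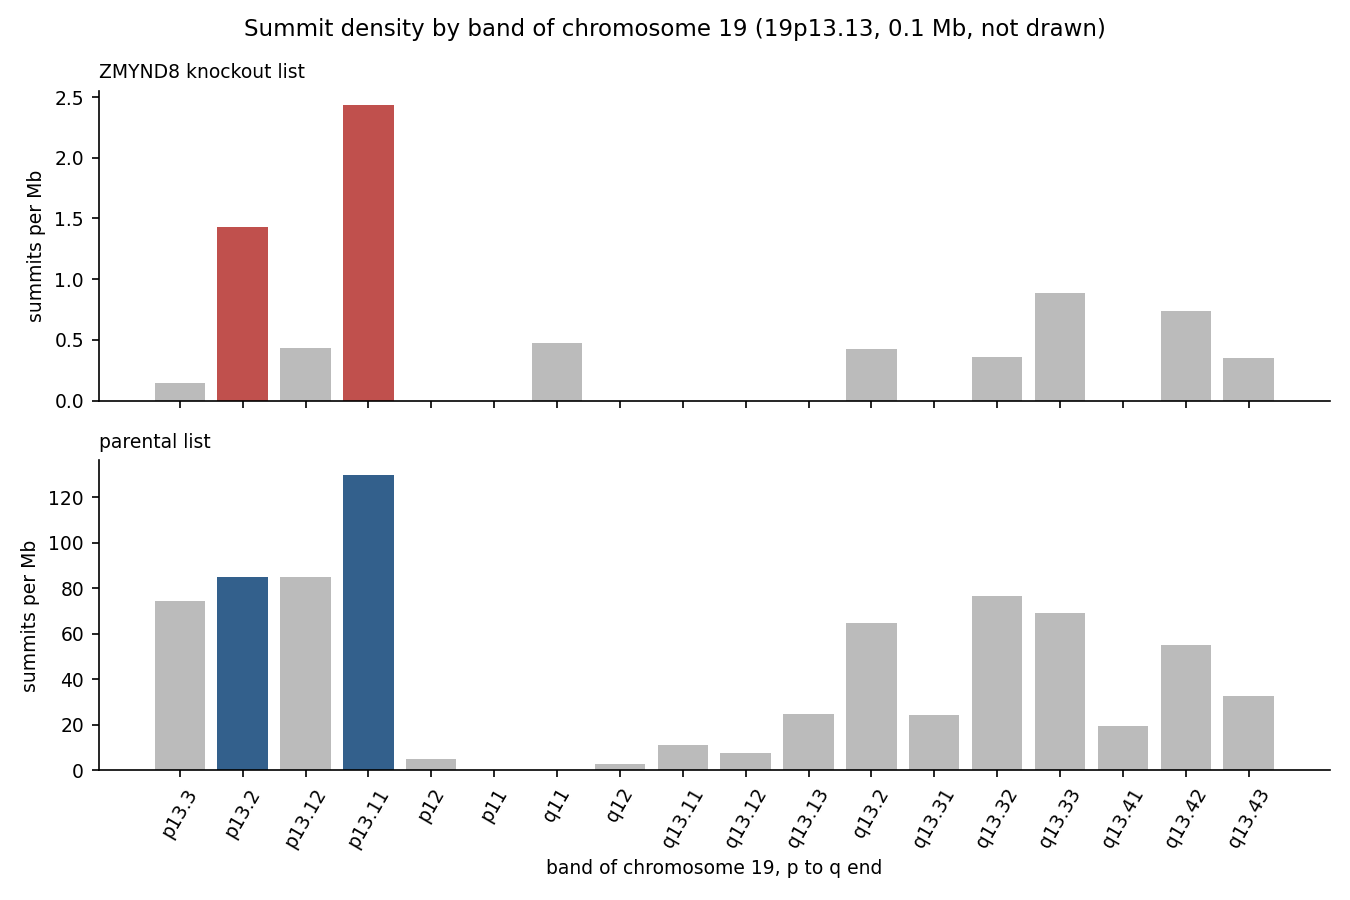
Summits per Mb in each band of chromosome 19, from the end of the short arm to the end of the long arm, for the knockout list (top) and the parental list (bottom). The coloured bars are 19p13.2 and 19p13.11; 19p13.11 had the tallest bar drawn in both lists, with 2.43 knockout and 129.7 parental summits per Mb. The 0.1 Mb band 19p13.13 is not drawn.

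Summits continued past the end of 19p13.2 and the start of 19p13.11. Just past the end of 19p13.2, the band 19p13.13 (0.1 Mb) held 4 knockout summits with scores of 3.51 to 7.33 and 30 parental summits with a highest score of 19.7. The last 100 kb inside 19p13.2 held no knockout summit and 10 parental ones. At the end of 19p13.11 the last 100 kb inside held 2 parental summits and the first 100 kb outside held none. At the starts of the bands the counts were 0 inside and 2 outside for 19p13.2, and 10 inside and 11 outside for 19p13.11, all of them parental.

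With no score minimum the knockout list had a larger share of its summits here than the parental list, but the intervals overlapped once a score minimum was set. The bands held 4.94% of the knockout list (3.0 to 7.60) and 2.34% of the parental list (2.2 to 2.48). At a score of at least 5 the bands held 5 of 171 knockout summits (2.92%, 0.956 to 6.69) and 329 of 13619 parental ones (2.42%, 2.16 to 2.69), with overlapping intervals. At a score of at least 10 they held 1 of 48 (2.08%, 0.0527 to 11.1) and 67 of 2880 (2.33%, 1.81 to 2.95), so the parental share was the larger one, within overlapping intervals. With no score minimum the parental list was 56.6 times longer inside the bands (36.1 to 94.3) and 122.5 times longer in the rest of the genome (110.6 to 136.2). At a score of at least 5 these ratios were 65.8 (27.9 to 204.0) and 80.1 (68.7 to 93.9), and at 10 they were 67 (11.6 to 2685) and 59.9 (44.9 to 81.7). By band, with no score minimum, the ratio was 59.5 (32.1 to 124.7) in 19p13.2 and 53.3 (27.9 to 117.3) in 19p13.11. The rest of chromosome 19 had a ratio of 119.9 (73.7 to 210.3), with an interval that overlaps that of the bands. Other dense bands fell on both sides, with 48 (21.8 to 131.9) in 11q13.1, 115.5 (52.8 to 315.8) in 17q25.3 and 123.6 (67.0 to 258.4) in 8q24.3. With 6 to 10 knockout summits a band, these ratios are loose.

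Summits were unevenly spread along both bands, and more so in 19p13.2. In 100 kb windows 19p13.2 had a median of 4.5 parental summits, with 10 of 70 windows empty and 8 with at least 20. In 19p13.11 the median was 11 summits, with 1 of 37 windows empty and 7 with at least 20. Over the genome 62.0% of 30970 windows were empty and 0.798% had at least 20. In 19p13.2 the fullest 11 windows (15.7%) held at least 50% of its parental summits, and in 19p13.11 the fullest 10 (27.0%) did.

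**Figure D2:**
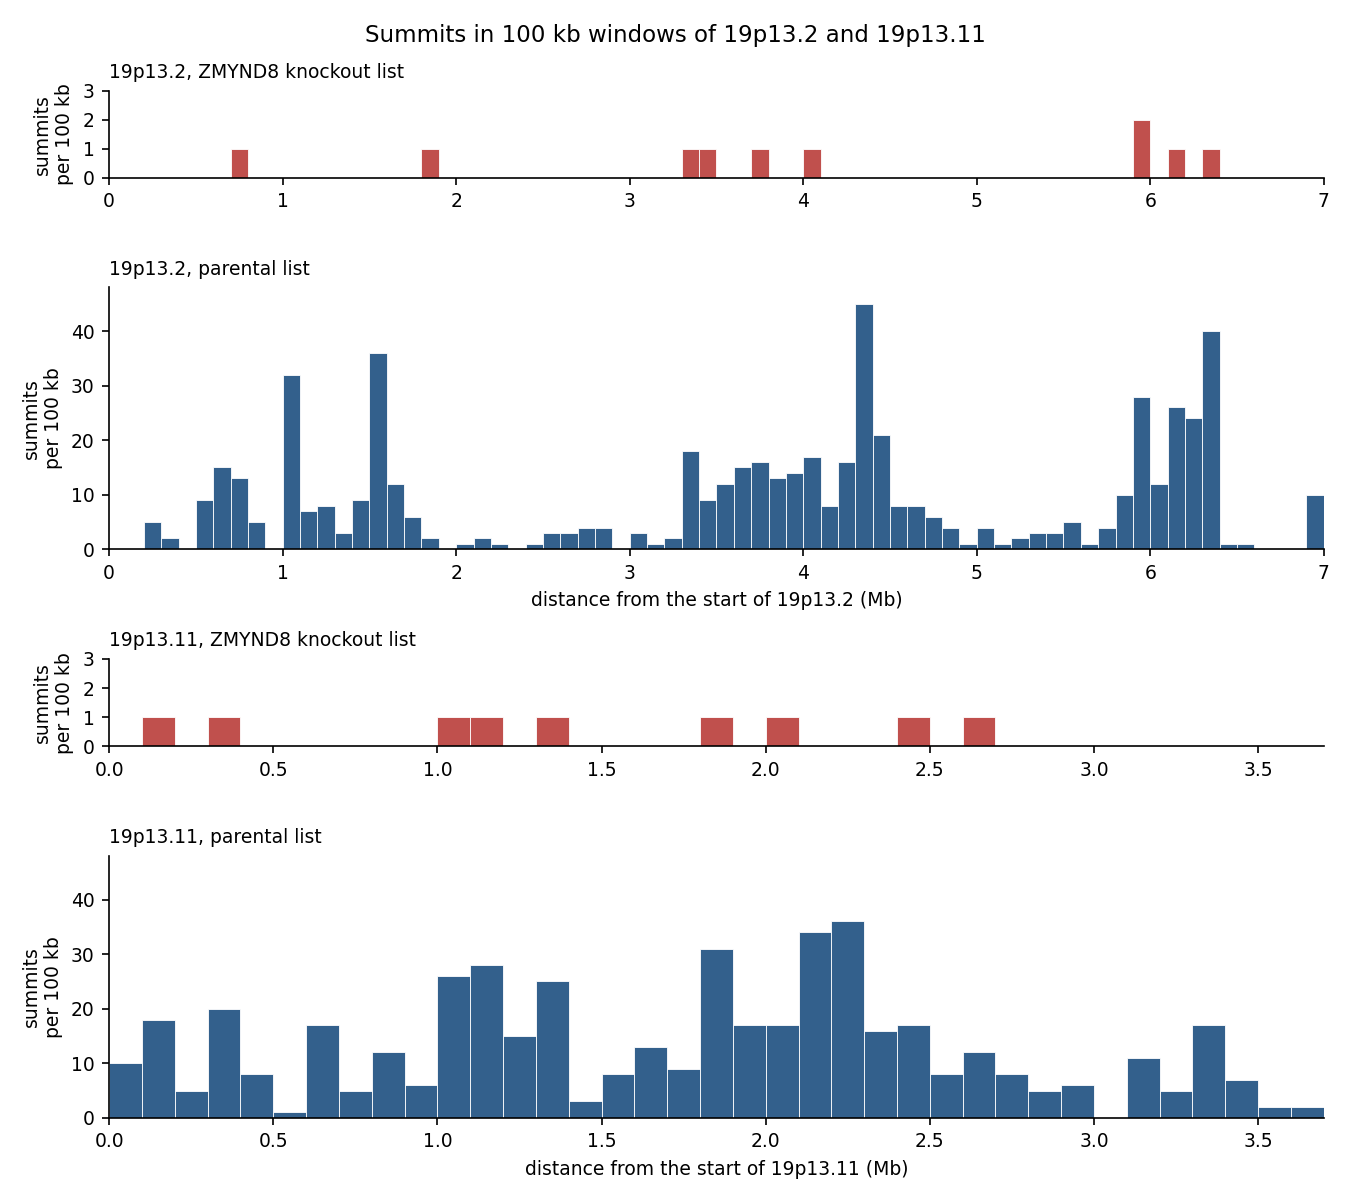
Summits per 100 kb window along 19p13.2 (upper pair of panels) and 19p13.11 (lower pair), with the knockout list above the parental list in each pair; the horizontal axis is the distance from the start of the band in Mb. Parental counts reached 45 per window in 19p13.2 and 36 in 19p13.11, and knockout counts reached 2.

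The window with most parental summits in 19p13.2 ran from 11200001 to 11300000 and held 45, with a highest score of only 12.7 and no knockout summit. It was followed by those from 13200001 (40 summits), 8400001 (36), 7900001 (32) and 12800001 (28). Knockout summits lay in the window from 13200001 (1) and in that from 12800001 (2), and in none of the other three. In 19p13.11 the fullest windows started at 18500001 (36 parental summits), 18400001 (34), 18100001 (31), 17400001 (28) and 17300001 (26). The window from 18400001 held 7 summits with a score of at least 10, more than any other of these 10 windows, and no knockout summit. The windows from 18100001, 17400001 and 17300001 held 1 knockout summit each.

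Longer dense stretches lay between 10200001 and 11600000 and between 12700001 and 13300000 in 19p13.2, and between 17800001 and 19100000 in 19p13.11. They were defined, after the windows had been seen, as 5 or more neighbouring windows with at least 8 parental summits each. The 3 stretches covered 3.3 Mb and held 12 of the 19 knockout summits and 586 of the 1075 parental ones (54.5%). Sparse stretches of 5 or more windows with at most 6 parental summits each were found in 19p13.2 alone. There were 4 of them over 3.7 Mb, and they held 1 knockout summit and 76 parental ones. The parental counts of both kinds of stretch follow from the rules that defined them. Most knockout summits lay within 1000 bp of a parental one, so their counts are not independent of these rules. The longest sparse stretch ran from 8600001 to 10200000 with 33 parental summits in 1.6 Mb. The next ran from 11600001 to 12700000 with 34 in 1.1 Mb. The others ran from 6900001 to 7400000 (7 summits) and from 13300001 to 13800000 (2 summits). Runs of empty windows lay from 6900001 to 7100000 and from 13500001 to 13800000.

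High scores were fewer in the sparse stretches, within overlapping intervals. The median parental score was 3.95 in the dense stretches and 4.31 in the sparse ones. A score of at least 10 was reached by 46 of 586 summits in the dense stretches (7.85%, 5.80 to 10.3) and by 1 of 76 in the sparse ones (1.32%, 0.0333 to 7.11). The share over the whole parental list was 6.27%. The stretch in 19p13.11 had the highest share, 23 of 226 (10.2%, 6.56 to 14.9), and the 2 dense stretches of 19p13.2 had 6.36% and 6.43%.

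Genes could be placed on hg19 for only 6 protein-coding genes of the bands, from a sample of transcript models that does not describe the genome. Of these, 1 (KEAP1) had a knockout summit within 1 kb of its transcription start site (TSS) and 4 had a parental one. Over all 291 protein-coding genes of the sample, 0.687% had a knockout summit there and 50.5% a parental one, so 4 of 6 is no more than a description of these genes. The count of genes with a parental summit was 3 within 500 bp and 4 within 5 kb, with no share over the 291 genes to set beside it.

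KEAP1, which holds the antioxidant factor NRF2 in check by handing it to a ubiquitin ligase, lies at 10596801 to 10613447 on the minus strand. Its knockout summit was at 10613322, in an intron and 125 bp inside the transcript, and it scored 3.27. Its parental summit at 10613352, in the same intron 95 bp downstream, had a score of 18.4 and ranked 390 in its list. The transcript held 3 further parental summits, in exons at 10602457 and 10610702 and in an intron at 10612070, with scores of 2.05 to 3.75. The knockout summit and the high parental one thus lay 30 bp apart, next to the KEAP1 sequence shown above.

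ANO8, of the anoctamin membrane protein family, lies at 17434032 to 17445664 on the minus strand and had 2 parental promoter summits and no knockout one. They lay 472 bp downstream in an intron (17445192, score 13.9) and 182 bp downstream in an exon (17445482, score 8.63). Another parental summit lay in an exon 1835 bp downstream (score 5.43). CTXN1, which encodes the small brain protein cortexin 1, lies at 7989376 to 7991020 on the minus strand. It had 1 parental summit in an exon 631 bp inside the transcript (7990389, score 15.9) and no knockout summit. PDE4A encodes a phosphodiesterase that breaks down cAMP, and its modelled transcript lies at 10563608 to 10580306 on the plus strand. This transcript had no summit of either list in its body or within 1 kb of its TSS; RefSeq lists further start sites for the gene, which were not placed on hg19.

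The 2 zinc finger genes of the bands with a model stood in sparse stretches. The others of the 33 listed zinc finger genes could not be placed. ZNF562 (9752483 to 9785776, minus strand) had 1 parental summit, 126 bp downstream in an intron (9785650), with a score of 4.10. ZNF443 (12540520 to 12551835, minus strand) had none. Neither had a knockout summit. Within 50 kb of the TSS the parental list held 2 summits at ZNF562 and 1 at ZNF443, against 8 at KEAP1, 13 at PDE4A, 24 at CTXN1 and 28 at ANO8. The zinc finger genes lie in stretches defined as sparse, and KEAP1 and PDE4A in one defined as dense. Their counts are therefore not independent of those rules. In RefSeq order ZNF562 belongs to a run of 11 neighbouring protein-coding genes whose symbols all start with ZNF, and ZNF443 to a run of 24. By the same order KEAP1 stands between PDE4A and S1PR5, CTXN1 between SNAPC2 and TIMM44, and ANO8 between DDA1 and GTPBP3.

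Between genes with a start site, the summits could be set against the number of protein-coding genes that RefSeq orders there, on the assumption that the order is the same in both builds. From CTXN1 to ZNF562 (1.76 Mb) there were 40 such genes, among them 12 ZNF genes, 8 olfactory receptor genes, the mucin gene MUC16 and ANGPTL4, an inhibitor of lipoprotein lipase. This interval held 1 knockout and 104 parental summits, 2.60 parental summits per gene. From ZNF562 to PDE4A (0.778 Mb) there were 25 genes, among them DNMT1, the kinase gene TYK2 and the 4 adhesion genes ICAM1, ICAM3, ICAM4 and ICAM5. This interval held 2 knockout and 61 parental summits, 2.44 parental summits per gene.

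From KEAP1 to ZNF443 (1.93 Mb) there were 55 genes, 20 of them ZNF genes, and SMARCA4, the arginine methyltransferase gene CARM1 and the erythropoietin receptor gene EPOR lie among the others. This interval held 1 knockout and 191 parental summits, 3.47 parental summits per gene. From ZNF443 to ZNF333, a gene of 19p13.12, there were 67 genes, among them JUNB, IER2, KLF1, the calreticulin gene CALR and the peroxiredoxin gene PRDX2. It held 9 knockout and 290 parental summits (4 and 157 of them in 19p13.2), 4.33 parental summits per gene. From ZNF333 to ANO8 there were 62 genes, among them KLF2, SIN3B, the scaffold of a histone deacetylase complex, and MED26, a Mediator subunit. This interval held 4 knockout and 234 parental summits (4 and 142 of them in 19p13.11), 3.77 parental summits per gene. These intervals carried 22.7 to 32.1 protein-coding genes per Mb, against 24.5 over chromosome 19 and 6.47 over the genome, and those from CTXN1 to ZNF562 (22.7) and from ZNF333 to ANO8 (23.8) lay below the value of the chromosome. As a background for the summits per gene, the genome held 45924 parental summits and 20037 protein-coding genes. Chromosome 19 held 2994 parental summits and 1451 protein-coding genes. The interval of 16.5 kb from PDE4A to KEAP1 had no gene and no summit of either list. Of the 90 genes in 8 lists for these bands, 4 had an hg19 model (KEAP1, PDE4A, ZNF562 and ZNF443), so no list could be counted against the summits.

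The median parental scores of the bands and their shares of high scores were close to those of the whole list. The median was 3.93 in 19p13.2 and 3.81 in 19p13.11, against 3.79 in the rest of chromosome 19 and 3.79 in the rest of the genome. Many scores were tied, and 3.79 was also the commonest value, with 5492 of 45924 summits in the whole list. In the bands it was less common, with 25 of 595 summits in 19p13.2 and 26 of 480 in 19p13.11. A score of at least 10 was reached by 33 summits of 19p13.2 (5.55%, 3.85 to 7.70) and 34 of 19p13.11 (7.08%, 4.95 to 9.76), against 6.27% of the whole parental list. The rest of chromosome 19 had 3.91% (3.09 to 4.87), just below the interval of 19p13.11. The highest scores were 28.3 in 19p13.2 and 32.3 in 19p13.11, against 263.6 elsewhere in the genome. High density thus went with a median and a share of high scores near those of the whole list, though fewer scores were tied at 3.79.

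**Figure D3:**
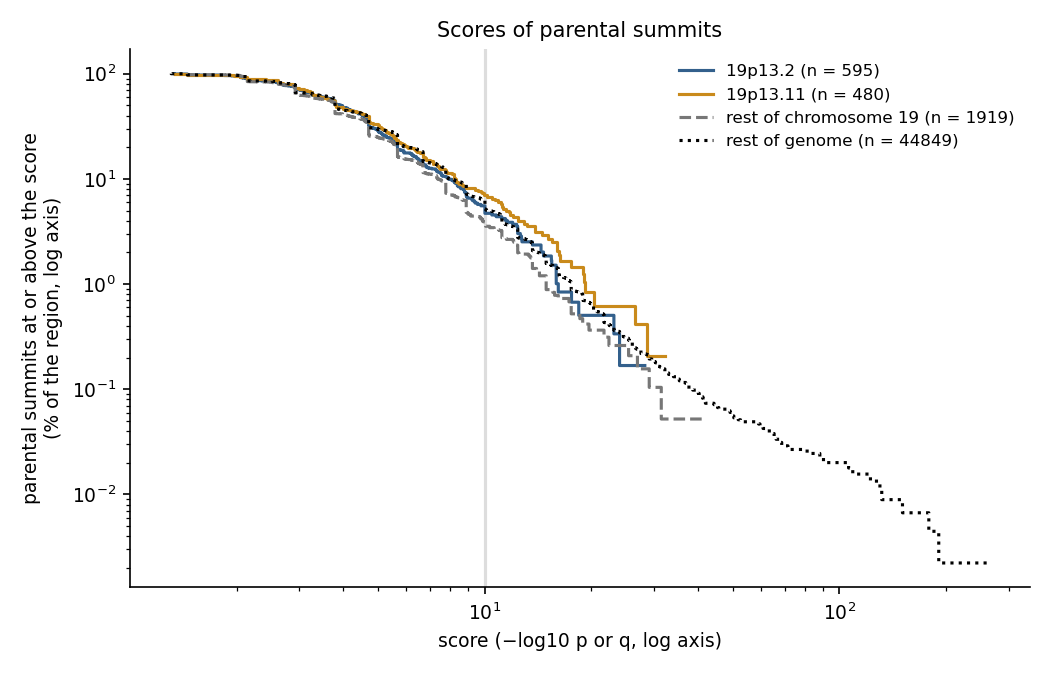
Share of parental summits at or above each score, on log axes, for 19p13.2, 19p13.11, the rest of chromosome 19 and the rest of the genome; the vertical line marks a score of 10. The curves run close together up to 10, where they stand at 5.55%, 7.08%, 3.91% and 6.27%, and the curves of both bands end at 28.3 and 32.3.

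The 10 highest parental summits of 19p13.2 had scores of 15.5 to 28.3. The first lay at 10947336 (score 28.3, rank 100), followed by 10217120 (24.0, rank 159) and 12845344 (23.1, rank 170). After the KEAP1 summit (18.4) came 12903155 (17.6), 10812214 (16.1), 8510393 and 10765522 (both 15.9), the CTXN1 summit (15.9) and 8373071 (15.5). A knockout summit lay within 1000 bp of the first 4 of these and of none of the others, for which it was at least 58127 bp away. Over the whole parental list 8.44% of summits with a score of at least 10 had one within 1000 bp. No share was taken over summits as high as these 10.

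The 10 highest of 19p13.11 had scores of 16.2 to 32.3. The first, at 17622592 (score 32.3, rank 66), and that at 17621985 (26.6, rank 115) lay in one cluster of 7 summits. The second lay at 16449375 (28.7, rank 98). Then followed 18393031 (20.4), 18700455 (19.13), 18391783 (19.002), 18942919 (18.9), 17417040 (17.5), 16738836 (16.3) and 18682825 (16.2). A knockout summit lay within 1000 bp of 6 of these 10, and 1032 bp from that at 18393031. The parental summits at 17622592 and 17621985 shared 1 knockout summit (score 5.37), so the 6 are not independent. The share over all parental summits with a score of at least 10 was 8.44%, and none was taken at scores as high as these.

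Parental summits of the bands lay close together, but most had no neighbour within 1000 bp. The median gap between neighbours was 2422 bp in 19p13.2 and 2275 bp in 19p13.11, against 3942 bp in the rest of chromosome 19 and 5934 bp in the rest of the genome. The bands were selected on their density, so shorter gaps and more near neighbours than elsewhere are not separate results. Of the summits, 318 of 595 (53.4%) stood alone in 19p13.2 and 258 of 480 (53.75%) in 19p13.11. A neighbour within 1000 bp was found for 46.6% of the summits of 19p13.2 and 46.2% of those of 19p13.11, against 41.0% in the rest of the genome. In 17q25.3, 11q13.1 and 8q24.3 the share was 53.7%, 54.5% and 58.7%. The widest gap was 431.8 kb in 19p13.2 and 129.5 kb in 19p13.11.

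The longest chain with gaps of at most 1000 bp lay in 19p13.11, from 17354681 to 17360144, with 10 parental summits, a highest score of 7.85 and no knockout summit. Another chain, from 17621203 to 17624776, held 7 parental summits, among them the highest of the band, and 1 knockout summit. A further one, from 19625391 to 19628215, held 6 with a highest score of 8.71. In 19p13.2 the longest chain held 6, from 10224428 to 10228026, with a highest score of 7.56. In chains of 3 or more, 14 of 118 summits of 19p13.11 (11.9%) and 8 of 119 of 19p13.2 (6.72%) reached a score of 10. Of summits that stood alone, 12 of 258 in 19p13.11 (4.65%) and 16 of 318 in 19p13.2 (5.03%) did. The counts behind these shares are small. Outside the bands the same shares were 7.98% and 2.52% in the rest of chromosome 19, and 9.73% and 4.43% in the rest of the genome.

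Most knockout summits lay at a parental summit. Of the 19, 12 (63.2%, 38.4 to 83.7) had a parental summit within 200 bp, against 75.6% of the whole knockout list, and 17 (89.5%, 66.9 to 98.7) had one within 1000 bp, against 93.5%. By band the counts within 200 bp were 7 of 10 and 5 of 9, and within 1000 bp 9 of 10 and 8 of 9. The median distance of the 19 was 87 bp. A score of 10 was reached by 1 of the 19 (5.26%, 0.133 to 26.0), an interval that covers the 12.5% of the whole knockout list. Their median score was 3.80, against 4.66 in the rest of the genome.

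**Figure D4:**
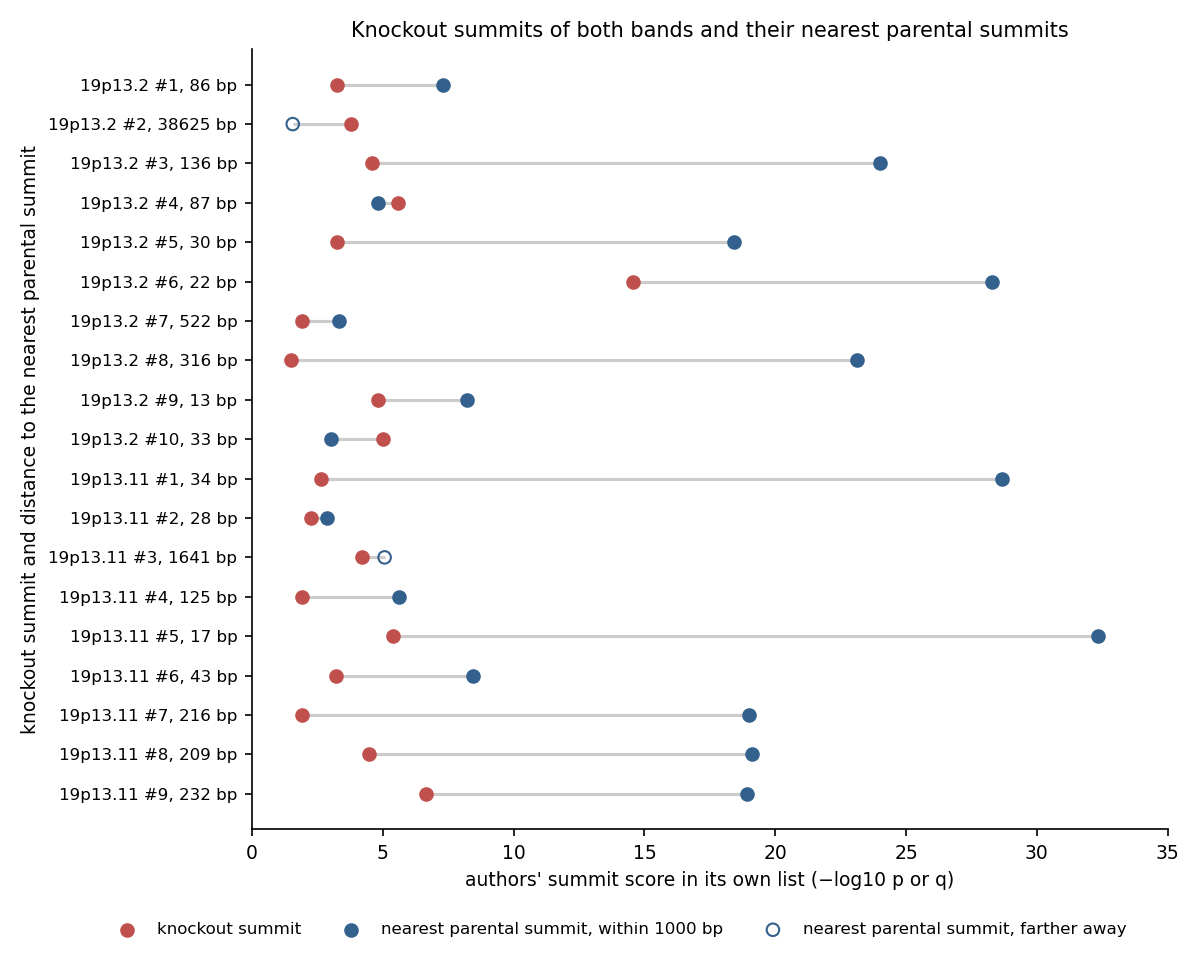
Scores of the 19 knockout summits and of the parental summit nearest to each, from the start to the end of each band, with the distance between them in bp on the vertical axis; filled blue points lie within 1000 bp and open ones farther away. Scores of different lists are drawn side by side and do not measure a change; the knockout summits run from 1.5 to 14.6, and 9 of the nearest parental summits score at least 10.

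The highest knockout summit of the bands stood at 10947358 in 19p13.2. It had a score of 14.6 and lay 22 bp from the highest parental summit of that band (28.3). The next by score was at 18943151 in 19p13.11 (6.67), 232 bp from a parental summit with a score of 18.9. That at 10363101 (5.57) lay 87 bp from a parental summit with a score of 4.84. That at 17622609 (5.37) lay 17 bp from the highest parental summit of 19p13.11 (32.3).

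Several low knockout summits lay at high parental ones. The knockout summit at 16449409 had a score of 2.65 and lay 34 bp from a parental score of 28.7. That at 10217256 scored 4.60, with a parental score of 24.0 at 136 bp. That at 12845028 scored 1.5, the lowest of the 19, with a parental score of 23.1 at 316 bp. In 19p13.11 the knockout summits at 18391999 (1.90) and 18700246 (4.48) lay 216 and 209 bp from parental scores of 19.002 and 19.13. In all, 9 of the 17 knockout summits within 1000 bp of a parental one had a parental partner with a score of at least 10. They include that of KEAP1 and the higher knockout summits at 10947358, 18943151 and 17622609.

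The other knockout summits had lower partners. In 19p13.2 the summit at 7600780 (3.27) lay 86 bp from a parental score of 7.29, that at 13002111 (4.81) 13 bp from 8.22, and that at 13264024 (5.003) 33 bp from 3.01. The knockout summit at 12812507 (1.90) lay 522 bp from a parental score of 3.35. In 19p13.11 the summit at 16682242 (2.27) lay 28 bp from a parental score of 2.86, that at 17420550 (1.90) 125 bp from 5.62, and that at 18156182 (3.23) 43 bp from 8.44. The partner had the higher number in 15 of the 17 pairs, but the scores were assigned within each list and are not a measure of change.

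The remaining knockout summits had no parental summit within 1000 bp. That at 8787311 in 19p13.2 had a score of 3.80, and its nearest parental summit, with a score of 1.56, was 38.6 kb away. It was the single knockout summit in the sparse stretches. That at 17321269 in 19p13.11 had a score of 4.23 and lay 1641 bp from a parental summit with a score of 5.07. Over the whole knockout list 25 summits had no parental summit within 1000 bp.

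The share of parental summits with a knockout partner was higher at higher parental scores. With 19 knockout summits against 1075 parental ones in the bands, this share could only be low. Within 200 bp, 7 of 595 (1.18%, 0.474 to 2.41) had one in 19p13.2 and 5 of 480 (1.04%, 0.339 to 2.41) in 19p13.11, against 0.636% of the whole parental list. Among parental summits with a score of at least 10 it was 5 of 67 over both bands (7.46%, 2.47 to 16.6), against 6.08% of all such summits. For scores from 5 to under 10 it was 4 of 262 (1.53%, 0.418 to 3.86), against 0.661%, and for scores under 5 it was 3 of 746 (0.402%, 0.0830 to 1.17), against 0.142%. The intervals of the highest and the lowest class do not overlap.

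Within 1000 bp, 26 of the 1075 parental summits (2.42%, 1.59 to 3.52) had a knockout summit, against 1.21% of the whole list. Among those with a score of at least 10 it was 12 of 67 (17.9%, 9.61 to 29.2), against 8.44% of all such summits and 8.21% (7.22 to 9.29) in the rest of the genome. For scores from 5 to under 10 it was 2.29%, against 1.56% of all such summits, and for scores under 5 it was 1.07%, against 0.449%. Several parental summits can share 1 knockout summit at this distance, so these are not independent. Knockout density moves with these shares, at 1.78 summits per Mb in the bands and 0.119 in the rest of the genome, and its part in them was not tested.

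**Figure D5:**
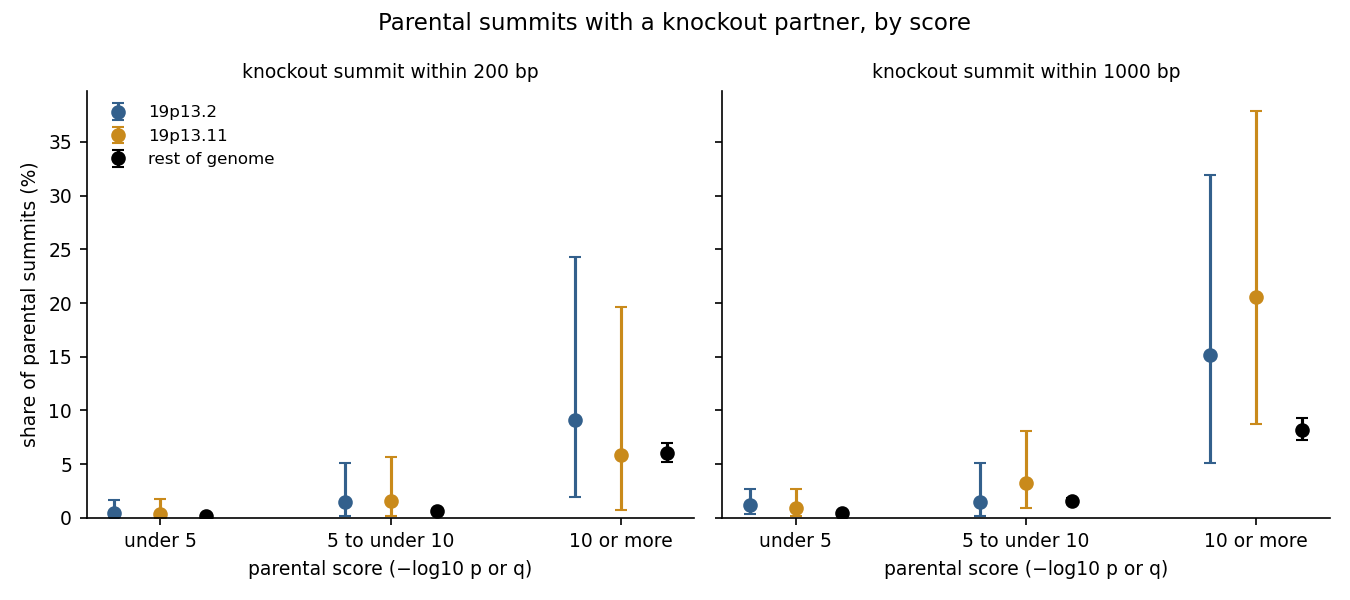
Share of parental summits with a knockout summit within 200 bp (left) and within 1000 bp (right), by parental score, for 19p13.2, 19p13.11 and the rest of the genome; points are shares and bars are 95% Clopper-Pearson intervals for counting error. Within 1000 bp the shares for scores of 10 or more were 15.2% and 20.6% in the bands and 8.21% in the rest of the genome, with the interval of 19p13.2 reaching down to 5.11%.

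Windows with a knockout summit were fuller in parental summits. Since 17 of the 19 knockout summits lay within 1000 bp of a parental one, this is not independent of the partner counts. In 19p13.2 the 9 windows with a knockout summit had a median of 17 parental summits (2 to 40), against 4 in the other windows. In 19p13.11 the 9 such windows had a median of 20 (12 to 31), against 8 in the others. As a description over windows, which share the library and the local gene content, Spearman's rho between the knockout and parental counts was 0.398 over 70 windows in 19p13.2 and 0.583 over 37 in 19p13.11. Between the parental count and the median parental score of a window it was -0.00687 over the 60 windows of 19p13.2 with a summit and 0.325 over the 36 of 19p13.11.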

How the data were processed

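ChIP-seq summits of 1 ZMYND8 knockout library and 1 parental library of MDA-MB-231 spheres were analysed, with groups taken from the labelled genotype. Tools listed in the submitters' processing notes are MACS2 2.0.10, Bowtie2 2.2.3, Picard 1.127 and FastQC 0.11.2, with hg19 as build and no settings. The deposited scores are the authors' −log10 p or q values, and which of these is not stated. For read depth, control, duplicates and threshold the sources used here state nothing (not given), so scores were used within a list only, and no depth correction could be made.

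Summits within 200 bp were partners, and a chain had gaps of at most 1000 bp. Shares have exact Clopper-Pearson intervals, densities exact Poisson intervals and ratios exact conditional binomial intervals. Band limits came from circlize 0.4.16, 500 transcript models from pyranges 0.1.4 (495 matched by accession to RefSeq; the models name no build and were taken as hg19, since parental summits stood within 1 kb of the start in 50.5% of their protein-coding genes), and gene order and promoter sequence from RefSeq tables of GRCh38.p14. A full hg19 genome and annotation were not used here. Motif shares refer to 250 bases before each start. Named were every knockout summit, the 10 highest parental summits and 5 fullest windows of each band, each run of 2 or more empty windows, and every gene with a model. The members and lists were chosen with earlier results of these data known. The partner and window counts were checked on simulated lists. Python 3.11.15, numpy 2.4.6, pandas 2.3.3, scipy 1.17.1 and matplotlib 3.10.9 were used. Alternatives covered score minimums, merging, distances, windows and promoter sizes.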

Additional observations from a re-analysis of the deposited data

How the results depend on the processing

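No paired analysis was possible because each genotype has 1 library. Of 53 alternatives, 29 stayed within the interval of the main value or within 1.5 times of a count or ratio, 23 moved farther and 1 turned a direction. Part of these moves had a direction fixed in advance. A score minimum cannot raise a count, a wider distance cannot lower a share, and another score limit counts a different set. The tally is therefore no measure of stability. The share of the knockout list in the bands, divided by that of the parental list, was 2.11 with no minimum, 1.21 at scores of 5 or more and 0.896 at scores of 10 or more, which turned it. With a score minimum of 5 the counts were 3 knockout and 171 parental summits in 19p13.2, and 2 and 158 in 19p13.11; at 10 they were 1 and 33, and 0 and 34. The ratio in 19p13.2 was 33 at the minimum of 10, and for 19p13.11 no ratio could be formed with 0 knockout summits. The share of parental summits with a knockout partner was 2.92% (19p13.2) and 2.53% (19p13.11) with the minimum of 5, 9.09% and 5.88% at 10, and 2.92% in 19p13.11 within 1000 bp. The share of knockout summits of 19p13.11 with a parental partner was 88.9% within 500 bp and 88.9% within 1000 bp. Scores of 5 or more were reached by 28.7% and 32.9% of parental summits (19p13.2, 19p13.11), and scores of 20 or more by 0.504% and 0.833%. With the minimum of 5 the median gap was 10403.5 bp in 19p13.2 and 5618 bp in 19p13.11. The stretches, the counts between genes, the ratio of shares by score and the share of the knockout list without the 15q24.2 run (5.19%) were chosen after seeing the data. Unknown depth limits every comparison of the lists.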
